A study of Homo sapiens with 4 samples.

Results

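The data describe 8 genes of cytosolic translation factors: the elongation factors EEF1A1 and EEF1D, and the initiation factors EIF2B4, EIF2B5, EIF3B, EIF3E, EIF4G2 and EIF6. They were taken by symbol from the deposited splicing tables, where they hold 14 of 471 events in 8 of 353 genes, and from the deposited peak lists, where a peak had to overlap the gene by at least 1 base. RNA came from RKO, an established human colorectal cancer cell line. The cells were labelled WT (wild type) or ZCCHC7-OE (overexpressing ZCCHC7, here OE). ZCCHC7 belongs to the TRAMP complex that hands nuclear RNA to the exosome. Each genotype had 1 input library and 1 immunoprecipitate (IP), 4 libraries in all, so there were no replicates, and every test below compares libraries, not conditions. The series title asks about the role and the targets of ZCCHC7 in colorectal cancer. No source used here names the promoter or vector behind the overexpression, or says whether the cells were a single clone. The antibody is uncertain, since the sample characteristics name ZCCHC7 and the extraction protocol SRSF1 and then m6A, so the libraries are called IP only.

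Translation begins when initiation factors load the small ribosomal subunit with the initiator tRNA and bring it to the mRNA, after which elongation factors deliver each aminoacyl-tRNA. The eIF2B complex recharges eIF2 with GTP, and its inhibition by phosphorylated eIF2 is the switch of the integrated stress response. Several mRNAs of this machinery, EEF1A1 among them, are known 5′ TOP mRNAs, which start with a C followed by a run of pyrimidines and whose translation follows mTOR signalling.

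The peak headers gave 896288 IP and 207641 input tags for WT, and 2725742 IP and 396820 input tags for OE, so the OE IP was 3.04 times as deep and its input 1.91 times. The splicing tables held 3833 counts for WT and 2432 for OE over all events. Each count cell joined 2 values per genotype by a comma without naming their libraries, and they are called the first and the second value. The values were unlike each other in all events: inclusion counts made up 26.7% of the first and 45.7% of the second value in WT, and 37.7% and 80.3% in OE. Genotypes were assigned from the name of the comparison, and setting first against first and second against second assumes the same order in both. Of 25 marker genes of colorectal epithelium, fibroblasts, immune cells and endothelium, none had an event or a peak, so the labelled cell type could not be checked.

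An inclusion count is a read that fits only the form with the alternative part, and a skipping count a read across the junction without it. The form lengths in the tables exceeded the skipping length of 149 bases by the whole alternative part in 456 of 456 events outside mutually exclusive exons, so reads inside a retained intron count as inclusion. The inclusion level is therefore given corrected for the form lengths, and the inclusion share is the plain percentage of counts. Exact Clopper-Pearson 95% intervals of shares cover counting error only, not variation between libraries. They may be too narrow even for counting error, since reads without molecular identifiers are not independent molecules. In these bulk samples, more cells with a form and more of that form per cell cannot be told apart.

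The 14 events were 8 retained introns, 5 skipped exons and 1 alternative 5′ splice site. No event in these genes passed a test of OE against WT. With at least 10 counts in each genotype, the test stratified by value called 1 of 32 events and Fisher's test on added values 9. Without a minimum they called 1 and 15 of 471. Only 1 of the 14 events met the minimum, and the counts of only 3 could have given an unadjusted p under 0.05. Over the 14 events, inclusion counts were 27 against 58 skipping counts in WT, and 60 against 12 in OE. This put the inclusion share at 31.8% in WT and 83.3% in OE, while the remaining 457 events went from 30.7% to 63.7%. The introns of EEF1A1 gave 16 and 14 of the 58 WT skipping counts. Some EEF1D events share reads, so the 14 events are not separate observations. The inclusion level with both values added was higher in OE in 13 of 14 events (92.9%), the median difference being 84.7 percentage points, beside 365 of all 471 events (77.5%) and 73.3 points. Without the length correction the median of the 14 was 52.4 points. The 32 genes of cytosolic ribosomal proteins had a higher added level in OE in 40 of 51 events (78.4%), by a median of 18.4 points. In 11 of 14 events (78.6%) OE had inclusion counts only, as it did in 293 of all events (62.2%).

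Added levels mix the values, so the direction was also read within each value. Of the 14 events, 10 had no first-value count in OE. Where both genotypes had counts in the first value (4 events), the level was higher in OE in 3, all of EEF1D, and equal in 1. In the second value (8 events) it was higher in 4, lower in 1 and equal in 3. The median difference of these events was 28.8 points in the first value and 38.8 in the second. No event lay near this second median, which fell between the equal events and the higher ones. The smallest difference among those higher was 77.6 points (EIF2B5), and EIF3E had 1 read in each genotype. Over all events the first value gave 82 higher, 47 lower and 44 equal of 173, with a median of 0 points. The second gave 93 higher, 33 lower and 57 equal of 183, with a median of 1.28. In the ribosomal protein genes the level was higher in OE in 5 of 13 events in the first value (38.5%) and in 28 of 39 in the second (71.8%), beside 4 of 8 (50%) for the translation factors in the second. By share of events higher in OE, the order in the added levels (92.9% and 78.4%) was thus turned in the second value. There 3 of the 8 translation factor events were equal. In the first value the order was kept (75% of 4 events and 38.5% of 13). By median difference it was kept in both values, at 28.8 and 0 points in the first and 38.8 and 14.9 in the second. The difference between the gene groups was not tested.

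**Figure D1:**
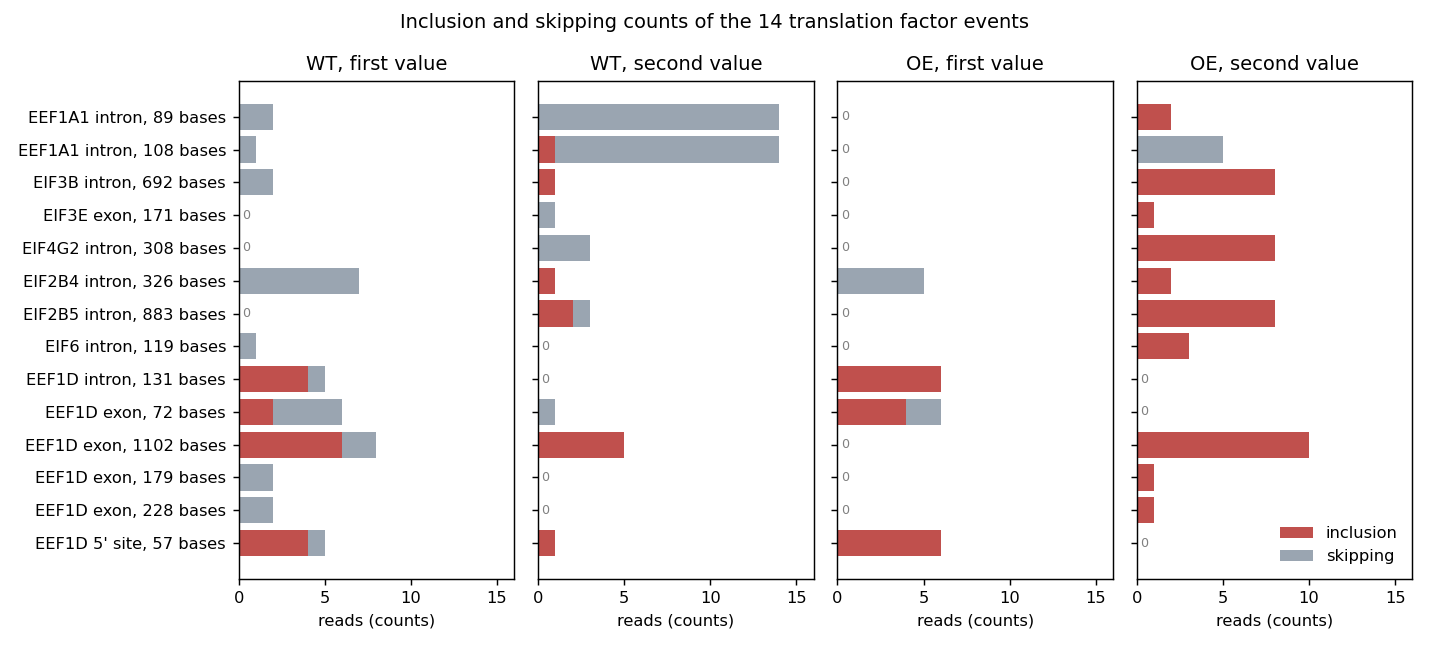
Inclusion (red) and skipping (grey) counts, in reads, of each of the 14 events, with a panel for each value of each genotype and 0 where a value has no count. WT holds mostly skipping counts in EEF1A1 and EIF2B4, the first value of OE is empty in 10 events, and the second value of OE holds mostly inclusion counts (44 against 5).

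EEF1A1 (ENSG00000156508, minus strand of chromosome 6) is the GTPase that carries aminoacyl-tRNA to the ribosome and one of the most abundant proteins of the cell. It was the only member with a peak, a single one in each list, and the peaks shared 1 summit base, chr6:73521112. The WT peak spanned chr6:73521000-73521229 (230 bases) and the OE peak chr6:73520993-73521236 (244 bases). MACS had extended each tag to 226 and 237 bases, so the peaks were 4 and 7 bases longer than 1 extended tag, and the medians of the lists were 115 and 121 bases longer. Just 6 of 57 WT peaks and 2 of 30 OE peaks were as short by that measure or shorter.

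The summit lay 80 bases upstream of the start at chr6:73521032 that the deposited annotation gives for EEF1A1-210 and EEF1A1-211 and that RefSeq gives for the gene. From that start, 197 bases of the WT peak (85.7%) and 204 bases of the OE peak (83.6%) lay upstream. The longer EEF1A1-201 starts at chr6:73521588, and its first exon, a 5′ UTR exon, held 100.0% of the WT peak and 97.1% of the OE peak. The peak thus covered the core promoter by EEF1A1-210 and EEF1A1-211 and transcribed 5′ UTR by EEF1A1-201. In EEF1A1-203, EEF1A1-204 and EEF1A1-205, which start farther upstream, the peak lay past the start and overlapped no exon, and the lists give no strand. To show what lies under it, 3 windows of RefSeq sequence (GRCh38.p14, minus strand, 5′ to 3′) are printed: around the summit, with the summit base in capitals, around the TATATAA motif, with the motif in capitals, and around the start, with the pyrimidine run that begins at the start in capitals.
EEF1A1 summit, chr6:73521097-73521126: ggtaaactgggaaaGtgatgtcgtgtactg
EEF1A1 TATATAA, chr6:73521044-73521073: ggggagaaccgTATATAAgtgcagtagtcg
EEF1A1 start, chr6:73521018-73521047: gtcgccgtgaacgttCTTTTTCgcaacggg

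TATATAA lay from 30 to 24 bases upstream of the start and 50 bases downstream of the summit. Searched on both strands, it was found in 901 of 35116 RefSeq promoter windows (2.57%), each from 250 bases before to 50 after a start. These windows matched 6 of the 8 genes, and EEF1A1 was the only one of those 6 with the motif. The start carried 7 pyrimidines from its first base, the letters known for 5′ TOP mRNAs. A C within 2 bases of the start followed by at least 4 C or T was found in 3693 windows (10.5%), and in 2 of the 9 windows of the 6 genes: this one and 1 of 2 starts of EIF4G2, where the run begins 1 base after the start.
EIF4G2 start, chr11:10807982-10808011: gaggttgtcggaagcaCTTCCCTaacttgc
EIF4G2 other start, chr11:10808912-10808941: cagacacgccttagcgccagcagtgagtcg

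Both peaks of EEF1A1 lay inside its RefSeq promoter window. Windows of the table, which does not hold every gene, were overlapped by 1 of 57 WT peaks (1.75%), that of EEF1A1, and by 2 of 30 OE peaks (6.67%), those of EEF1A1 and LOC101928626. The window was 60.7% G and C. The EEF1A1 promoter is widely used to drive transgenes in expression vectors, and whether it was used here is not given in the sources.

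**Figure D2:**
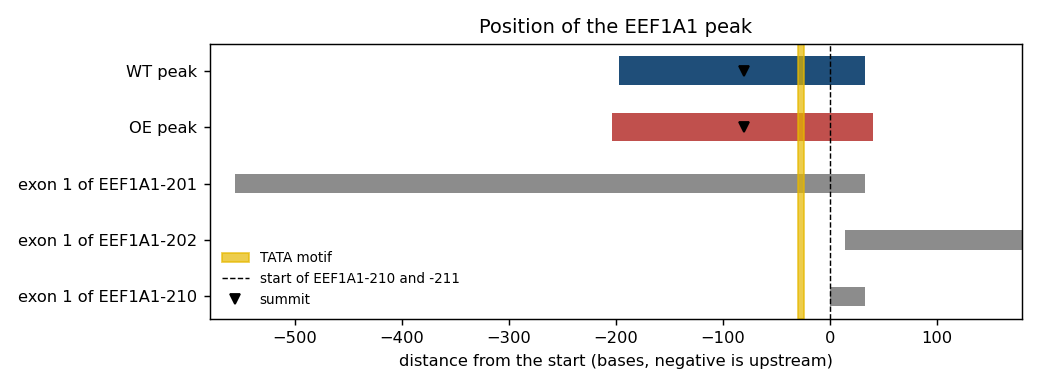
The WT and OE peaks of EEF1A1 with the first exons of 3 transcript models, against distance in bases from the start of EEF1A1-210 (negative is upstream). Both summits (triangles) sit 80 bases upstream of the start, with the TATA motif (yellow) between summit and start, and the peaks lie inside exon 1 of EEF1A1-201 apart from the downstream end of the OE peak.

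At the summit the WT IP held 36 tags (95% Poisson interval 25.2 to 49.8) and the OE IP 138 (116 to 163). Per 1000000 IP tags of the library this was 40.2 in WT and 50.6 in OE, so OE over WT was 1.26 (95% interval 0.868 to 1.87). The exact binomial test did not separate that ratio from 1 (adjusted p = 0.253), in a comparison where 14 of 16 shared peaks (87.5%) were called. Those called had ratios from 0.234 to 0.328, except at MTCO1P12 and MTCO2P12 (1.52) and at MT-ND4 and MT-ND4L (1.54). Scaled to the input tags instead, the EEF1A1 ratio was 2.01 and passed the exact test (adjusted p = 0.000121), so the call rests on the scaling. By tags the peak ranked 37 of 57 in WT and 11 of 30 in OE.

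Input background at the summit was 1 tag in WT (interval 0.0253 to 5.57) and 5 tags in OE (1.62 to 11.7). IP over input, each scaled to its library, was 8.34 in WT and 4.02 in OE. The ratio of these, 0.482, had an interval from 0.00991 to 4.51, and the exact test did not separate it from 1 (adjusted p = 0.822), where 6 of 11 shared peaks with whole input tags (54.5%) were called. The depth-scaled IP was thus higher in OE and IP over input lower, and neither difference exceeded counting error. The authors' deposited table gave the peak a fold over local background of 4.67 with q = 0.359 in WT, and 3.52 with q = 0.0298 in OE. The WT peak was thus listed on its p of 1.13e-06 under the authors' cutoff of 0.005 and did not reach a q of 0.05.

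The 3 shared peaks nearest to EEF1A1 in depth-scaled ratio lay at the mitochondrial pseudogenes MTCO1P12 and MTCO2P12 (48 and 222 tags, ratio 1.52), at MT-ND4 and MT-ND4L (165 and 775 tags, ratio 1.54), and outside genes on chromosome 4 (35 and 84 tags, ratio 0.789). The interval of EEF1A1 overlapped those of all 3, which were 1.11 to 2.12, 1.3 to 1.84 and 0.526 to 1.21. Because these peaks were chosen for their near ratio, the overlap is no evidence of likeness. EEF1A1 has 39 numbered pseudogenes in the deposited annotation, EEF1D 8 and EIF3E 2, none with a peak or an event. How the counting split reads between a gene and its copies is not given in the sources, so the counts of these genes are uncertain.

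**Figure D3:**
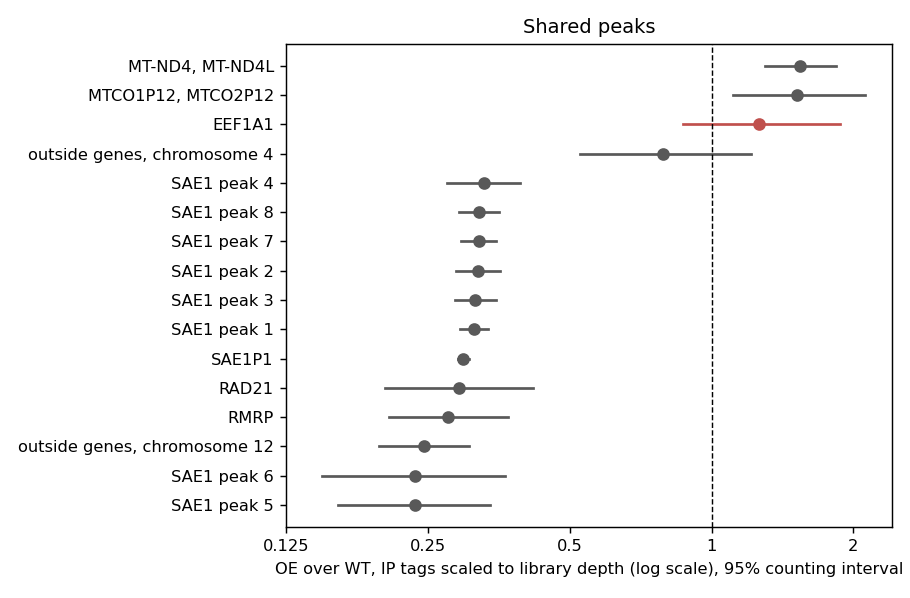
Ratio of OE to WT IP tags, scaled to library depth, at the 16 shared peaks, on a log axis; points are ratios, bars exact 95% counting intervals, and the dashed line marks equal levels. EEF1A1 (red, 1.26) is among the 3 highest ratios, and its bar crosses the line.

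The splicing tables listed 2 introns of EEF1A1, both between coding exons and both downstream of the peak by 2646 and 1663 bases. The intron of 89 bases between exons 6 and 7 of EEF1A1-201, chr6:73518265-73518353, is retained in EEF1A1-207. WT had 0 inclusion and 2 skipping counts in the first value and 0 and 14 in the second. OE had no counts in the first value, and 2 inclusion and 0 skipping counts in the second. All 16 WT reads skipped the intron (an inclusion share of 0, interval 0 to 20.6%), and both OE reads included it (100.0%, interval 15.8 to 100.0%). The exact test stratified by value gave an unadjusted p of 0.00833, which missed the threshold after adjustment over all 471 events (adjusted p = 0.392). It rests on 2 reads in OE.

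The intron of 108 bases between exons 3 and 4, chr6:73519229-73519336, is retained in EEF1A1-209 and had mostly skipping counts in both genotypes. WT had 0 inclusion and 1 skipping count in the first value and 1 and 13 in the second, and OE had 0 and 5 in the second alone. Its level was 3.98% in WT and 0 in OE, the only event of the 14 with a lower level in OE. The exact p was 1, and the counts could not have given less than 0.263. In OE, therefore, the second value held only inclusion counts at the one intron and only skipping counts at the other.

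EEF1D is the delta subunit of the eEF1B complex, which returns eEF1A to its GTP-bound state. It held 6 of the 14 events, and reads of both genotypes in the first value at 3 of them. The largest was a skipped exon of 1102 bases, of which 1091 are coding in EEF1D-204. This exon encodes the amino-terminal extension of the long EEF1D form, which is known as a nuclear transcription factor of heat shock genes. WT had 6 inclusion and 2 skipping counts in the first value and 5 and 0 in the second. OE had none in the first and 10 and 0 in the second. The inclusion share was 84.6% in WT (interval 54.6 to 98.1%) and 100.0% in OE (69.2 to 100.0%), so the shares' intervals overlapped widely. Corrected for length, the level was 39.6% in WT and 100.0% in OE.

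This exon was the only event of the 8 genes with at least 10 counts in each genotype, the minimum set for the test. It did not pass the exact stratified test (p = 1, adjusted p = 1), where 1 of 32 tested events, in RPS15, was called (3.12%). Since the second value held no skipping count in either genotype and the first none at all in OE, that test could give no other p. With the values added, Fisher's exact test gave an adjusted p of 0.648, beside 9 of 32 events called (28.1%). The tested events of other genes with the most similar levels were 2 retained introns of REX1BD (38.1% and 57.5% in WT, 100.0% in OE) and a retained intron of SRA1 (9.37% and 100.0%).

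A coding exon of 72 bases, exon 3 of EEF1D-201, was included in 2 and skipped in 4 reads in the first value of WT, with 0 and 1 in the second. OE had 4 and 2 in the first value and none in the second. The level was 21.2% in WT and 57.4% in OE. The exact stratified p was 0.567, although these counts could have given 0.00216, so of the events of these genes this one was the best placed to show a difference within a value. Its length is a multiple of 3, so either form keeps the reading frame.

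An alternative 5′ splice site adds 57 coding bases to exon 4 of EEF1D-201. WT had 4 inclusion and 1 skipping count in the first value and 1 and 0 in the second, and OE had 6 and 0 in the first. An overlapping retained intron of 131 bases, kept in EEF1D-219, had the same first-value counts in both genotypes, so the 2 events share reads. Both had an exact p of 0.455. The other 2 EEF1D events, overlapping noncoding exons of 179 and 228 bases, shared 0 and 2 counts in the first value of WT and 1 and 0 in the second value of OE, so no value held both genotypes. In all 6 events the added level was higher in OE, by a median of 48.3 points, and in 3 of 3 within the first value, where events share reads.

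EIF2B4 and EIF2B5 are the delta and epsilon subunits of eIF2B, epsilon being the catalytic one. The intron of 326 bases between exons 2 and 3 of EIF2B4-201, chr2:27369550-27369875, is retained in EIF2B4-207. WT had 0 inclusion and 7 skipping counts in the first value and 1 and 0 in the second, and OE had 0 and 5, then 2 and 0. The level was 0 in the first value of both genotypes and 100.0% in the second value of both. Adding the values nevertheless put it at 4.29% in WT and 11.1% in OE. This was the only event of the 14 with counts in both values of both genotypes, and its exact stratified p was 1.

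The intron of 883 bases between exons 2 and 3 of EIF2B5-201, chr3:184136737-184137619, was the longest of the 8 and is kept in EIF2B5-209. It had no first-value counts. The second value held 2 inclusion and 1 skipping counts in WT and 8 and 0 in OE, a level of 22.4% and 100.0% (exact p = 0.273). As this p was the smallest that these counts allow, the depth could not have shown a difference.

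EIF3B, a scaffold subunit of eIF3, had an intron of 692 bases between exons 18 and 19 of EIF3B-201, chr7:2379512-2380203, retained in EIF3B-207. It is the last intron and lies outside the coding part, in the 3′ UTR, the only retained intron of the 8 to do so. WT had 0 and 2 counts in the first value and 1 and 0 in the second, and OE 8 and 0 in the second. Within the second value both genotypes were thus at 100.0%, and the added level of 8.14% in WT came from the skipping reads of the first value. EIF3E, another eIF3 subunit, had a noncoding exon of 171 bases with 1 skipping count in WT and 1 inclusion count in OE, both in the second value.

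EIF4G2, also called DAP5, is an eIF4G relative that lacks the eIF4E-binding part and serves cap-independent initiation. Its intron of 308 bases between exons 8 and 9 of EIF4G2-201, chr11:10803591-10803898, is retained in EIF4G2-225. The second value held 0 inclusion and 3 skipping counts in WT and 8 and 0 in OE, with no first-value counts in either. All WT reads skipped the intron and all OE reads included it, an inclusion share of 0 in WT (interval 0 to 70.8%) and 100.0% in OE (63.1 to 100.0%). This gave the smallest exact p of the 14 events, 0.00606, which missed the threshold after adjustment (adjusted p = 0.357). It rests on 11 reads.

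EIF6 keeps the large ribosomal subunit from joining the small one too early. Its intron of 119 bases between exons 1 and 2 of EIF6-201, chr20:35284262-35284380, is retained in EIF6-202, where all 119 bases are annotated as coding; the other 7 retained introns are kept in transcripts without a coding sequence. WT had 1 skipping count in the first value and OE 3 inclusion counts in the second, so no value held both genotypes.

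**Figure D4:**
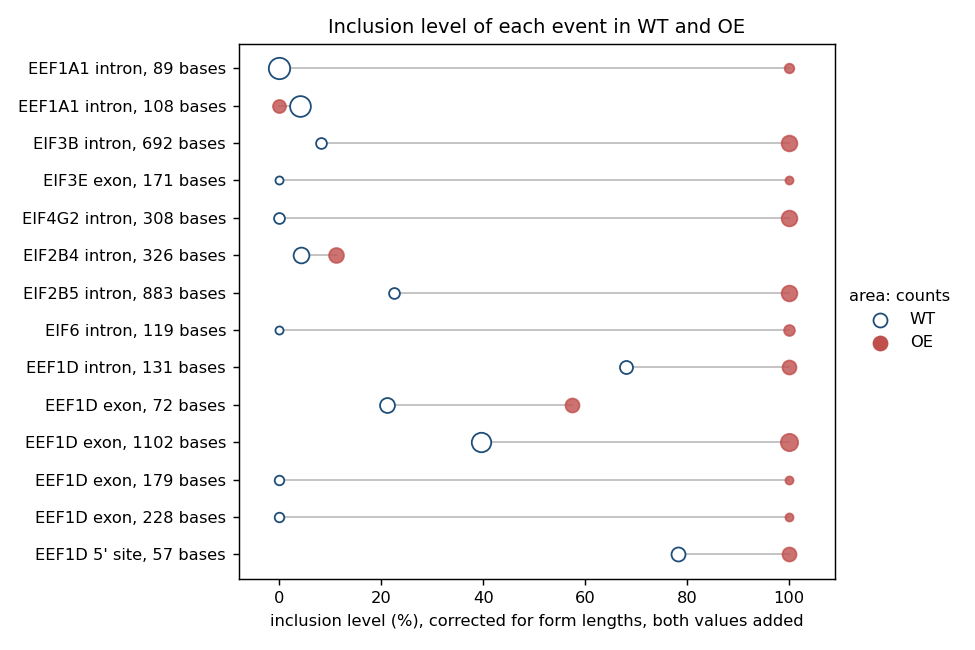
Length-corrected inclusion level, in percent with both values added, of each event in WT (open circles) and OE (filled circles), with circle area growing with the number of counts. OE lies to the right of WT in 13 of 14 events and at 100.0% in 11, and many circles rest on a few reads.

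The 8 retained introns were 89 to 883 bases long, 7 lay between coding exons, and 7 had lengths that are no multiple of 3. OE had a higher added level in 7 of the 8, by a median of 84.7 points, beside 214 of all 264 retained introns (81.1%) and 84.8 points. Within the first value it was higher in 1 of 2, and within the second in 3 of 6, with 1 lower and 2 equal and a median of 38.8 points. No intron lay near that median, as the smallest difference among those higher was 77.6 points. Over all retained introns the level was higher in OE in 29 of 74 in the first value and 57 of 118 in the second. The median was 0 in each. Leaving out the EEF1D intron, the second value held 5 inclusion and 31 skipping counts in WT and 31 and 5 in OE, and 27 of the 31 WT skipping counts came from EEF1A1. The inclusion share was thus 13.9% in WT and 86.1% in OE, beside 52.8% and 84.8% over all retained introns. In the same introns the first value held 0 inclusion and 13 skipping counts in WT and 0 and 5 in OE. Outside EEF1D, therefore, no read of the first value supported retention in either genotype, beside inclusion shares of 16.3% (WT) and 34.4% (OE) over all retained introns. The EEF1D intron held 4 inclusion and 1 skipping counts there in WT and 6 and 0 in OE.

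Without a minimum on counts, 0 of the 14 events were called by the exact stratified test, and 1 of 471 was, in RPL10 (0.212%). Of these 14, 2 had an unadjusted p under 0.05, the EIF4G2 intron and the shorter EEF1A1 intron, and the counts of only 3 could have given one. Over all 471 events, 38 were under 0.05 unadjusted (8.07%) and 65 could have been. On added values 0 of 14 and 15 of 471 (3.18%) were called, with 2 of 14 and 79 of 471 under 0.05 unadjusted. The authors' deposited table gave a p and an FDR of 1 for all 14 events, as it gave a p of 1 for 459 of 471 (97.5%). Depth was low throughout, at 2 to 23 counts per event with a median of 11 for these genes, and at 2 to 885 with a median of 7 for all events.

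Of 74 listed genes of cytosolic translation factors, 9 had an event, 17 in all, and none was called. The ninth was DDX3X, an RNA helicase that helps ribosomes scan structured leaders. Its 3 events overlapped and had the same counts, 2 skipping counts in WT and 6 inclusion counts in OE, all in the second value (exact p = 0.0357, adjusted p = 0.495). Of 14 genes of the integrated stress response, the pathway that acts through eIF2B, only ATF4, its main transcription factor, had an event. This retained intron had 9 inclusion and 0 skipping counts in the first value of WT, 0 and 1 in the second, and 2 and 0 in the first value of OE (exact p = 1). Of 10 listed mitochondrial translation factors, 9 were found in the deposited annotation, and none of these had an event or a peak.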

How the data were processed

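Values are those the authors deposited. The splicing tables hold, per the file headers, inclusion and skipping counts of each event, the authors' inclusion levels as a fraction, and a p-value with its FDR. The peak lists hold, per the file headers, a pileup signal, −log10 p and q values, and a fold ratio over local background from MACS 2.1.0.20150420, run once per genotype on 1 IP against 1 input library with a p cutoff of 0.005 and an effective genome size of 209714707. FastQC 0.11.5 and HOMER are named in the submitters' processing notes. The aligner and the genome build are not given in the sources used here. Of 36022 symbols found once in both the deposited annotation and RefSeq on GRCh38.p14, 99.9% overlapped.

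From these, whole IP tags were recovered by dividing the pileup by the input-to-IP ratio of library totals, and all 67 WT and 39 OE summits came out whole within 0.1. Input tags were computed from pileup and fold and used where whole within 0.01. Inclusion and skipping counts were tested by an exact two-sided conditional test stratified by value, on events with at least 10 counts in each genotype. Tags of shared peaks were tested by an exact two-sided binomial test, and IP over input by an exact two-sided conditional test. All p were adjusted by Benjamini-Hochberg over every event or shared peak tested, with a threshold of 0.05 (Python 3.11.15, SciPy 1.17.1, NumPy 2.4.6). The stratified test was checked on simulated counts of events that met the minimum, and the tests of tags were not. Alternatives covered how values were combined, the count minimum, the adjustment, length correction, tag scaling and peak overlap. The members and gene lists were chosen with earlier results of these data known. All events and peaks of the 8 genes are named, other listed genes where they have one, and the 3 most similar events and peaks. Sequences are RefSeq's. EEF1D and EIF3E are described by exon number and length only.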

Additional observations from a re-analysis of the deposited data

How the results depend on the processing

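Of 22 alternative values, 12 kept their direction and their side of the threshold, or moved little, and 10 did not. The 12 include the values of the EEF1D exon below. They include the median without length correction, counted because it moved by less than the standard deviation over events. A minimum of 1 count is also among them, though the event called there was in RPL10 and not in RPS15. The adjusted p of the EEF1D exon of 1102 bases ranged from 0.325 with crossed values to 1, but its stratified p could only be 1 and its added p no lower than 0.178, so these values say nothing about stability. Each value alone left it under the minimum, so no value was obtained there. Over all genes, 1 event was called as reported, 9 with values added, 11 with values crossed, 0 of 15 with first values alone, 4 of 90 at a minimum of 5 counts, and 2 with adjustment within each class. A minimum of 5 counts took 6 member events instead of 1, and a minimum of 20 took 0. Without length correction the median difference of the 14 events was 52.4 points instead of 84.7. The EEF1A1 tag ratio of 1.26 became 2.01 when scaled to input tags (exact adjusted p = 0.000121) and 3.83 unscaled (adjusted p = 1.49e-14). The libraries held 4.32 IP tags per input tag in WT and 6.87 in OE, and the OE IP was the deeper one. At a q under 0.05, 1 of the 2 EEF1A1 peaks was left, that of OE. No paired analysis was possible because each genotype has 1 input and 1 IP library. Depth limits the splicing results, as the counts of 11 of 14 events could not give an unadjusted p under 0.05, and those of 65 of all 471 could.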
